A study of Mus musculus with 26 samples.

Results

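The expression of 10 genes of the regulator of G protein signalling (RGS) group was followed through arteries of mice with and without the lipid kinase Sphk1 in smooth muscle. They were chosen by name, as Rgs1, Rgs2, Rgs3, Rgs4, Rgs5, Rgs7bp, Rgs10, Rgs12, Rgs16 and Rgs19, and all 10 were found among the 55414 gene identifiers that the count tables of both tissues share. RGS proteins switch off signalling by receptors that act through heterotrimeric G proteins. Most of them speed the hydrolysis of GTP by the G alpha subunit, so that it returns to its inactive state. In arteries, angiotensin II, endothelin, noradrenaline and sphingosine-1-phosphate all act on such receptors, and RGS proteins that act on Gq and Gi subunits are known to limit the contraction of smooth muscle and blood pressure.

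Libraries of poly(A) RNA came from 2 vessels: the aorta, which is large and elastic, and the mesenteric arteries, the muscular vessels that feed the gut. All mice were male, carried loxP-flanked Sphk1 alleles (Sphk1 flox/flox) and were of the C57BL/6J strain. The wild-type (WT) mice had no Cre, and the knockout (KO) mice had Cre under the promoter of Tagln (SM22 alpha), which is active in smooth muscle, so other cells of the KO vessel keep the gene. At 12 to 14 weeks of age, mice were given angiotensin II (AngII) at 490 ng/kg/min for 14 days from an osmotic minipump, or a sham procedure. Each tissue had 4 WT sham, 4 WT AngII and 5 KO AngII libraries. A sham group of KO mice was not analysed here, and WT and KO are therefore compared under AngII alone. Depth, as counts in genes, was 23.5 to 32.3 M for aorta and 17.5 to 30.1 M for mesenteric arteries. Nothing in the labels says whether libraries with the same number came from the same mouse.

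Levels are given as normalised CPM, the share of a library's counts that a gene takes, after scaling all 26 libraries together by TMM, which corrects for library composition. Differences are log2 fold changes ± standard error from edgeR's quasi-likelihood test, with p-values adjusted over all genes tested by the Benjamini-Hochberg method. A gene is called, and said to rise or fall, where the adjusted p is below 0.05. Sphk1 itself checked the labels. In the aorta it was at 3.17 to 6.19 CPM in WT sham, 12.1 to 25.2 in WT AngII and 1.78 to 3.43 in KO AngII. In the mesenteric arteries the ranges were 7.15 to 9.12, 9.51 to 17.3 and 2.81 to 4.62 CPM. Every KO library lay below every WT AngII library of its tissue.

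Marker genes of cell types were averaged in each library. Smooth muscle markers averaged 9.94 to 10.999 on the log2 CPM scale over all 26 libraries. Their ranges overlapped between the tissues, so they do not check the tissue labels. Endothelial markers did not overlap, at 4.90 to 5.86 in the aortic and 6.83 to 7.84 in the mesenteric libraries. Some mesenteric libraries stood apart. KO AngII replicates 1, 3 and 5 and WT AngII replicate 1 had B lymphocyte markers averaging 3.05 to 6.38, against at most 1.40 in the other 9. KO AngII replicate 3 was also highest in macrophage markers, at 7.15. KO AngII replicate 4 was highest in neural and glial markers, at 5.90, against 2.81 to 4.53 in the other mesenteric libraries. Gut and pancreas markers varied widely, from a sum of 6.95 CPM in WT AngII replicate 1 to 20083 CPM in WT AngII replicate 4. They summed to 18.4 CPM in sham replicate 3, 9076 in sham replicate 1 and 13841 in KO AngII replicate 5. The part of such tissue in the RGS values was not tested. For several members whose difference leans on KO AngII replicate 3 or 4, a value without that library, or without both, is given.

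The part of the promoter just before the start of transcription is shown for the 4 members that were called after AngII in the aorta, since these are the sequences upstream of the genes that moved. Each is the 250 bases before the start site in RefSeq on GRCm38.p6, written 5′ to 3′ on the gene's own strand. The deposited counts were made on GRCm39, so these positions are not those of the counting annotation. Capitals mark matches on either strand to 3 motifs. The CCAAT box was searched by the letters of its name, the GC box as GGGCGG, and the cAMP response half-site as CGTCA. The TATA box was searched as TATAAA. The AP-1 site was searched as TGANTCA, the E-box as CACGTG, and the CArG box by its consensus, all on both strands. No matches of these motifs overlapped in the windows shown. Rgs5 and Rgs7bp fell after AngII, and Rgs10 and Rgs19 rose. Rgs5 lies on the + strand at chr1:169655251-169655500, Rgs7bp on the - strand at chr13:105054931-105055180, Rgs10 on the - strand at chr7:128418173-128418422, and the first of 3 listed starts of Rgs19 on the - strand at chr2:181693978-181694227.
Rgs5: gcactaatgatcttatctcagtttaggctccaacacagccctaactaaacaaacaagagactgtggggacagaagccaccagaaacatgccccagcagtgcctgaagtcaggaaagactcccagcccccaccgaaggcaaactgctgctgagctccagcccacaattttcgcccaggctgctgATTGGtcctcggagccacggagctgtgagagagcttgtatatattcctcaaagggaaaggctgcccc
Rgs7bp: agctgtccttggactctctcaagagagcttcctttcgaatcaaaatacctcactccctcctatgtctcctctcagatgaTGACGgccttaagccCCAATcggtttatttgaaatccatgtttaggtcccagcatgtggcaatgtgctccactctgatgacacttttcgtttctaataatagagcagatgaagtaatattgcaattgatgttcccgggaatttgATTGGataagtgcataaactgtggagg
Rgs10: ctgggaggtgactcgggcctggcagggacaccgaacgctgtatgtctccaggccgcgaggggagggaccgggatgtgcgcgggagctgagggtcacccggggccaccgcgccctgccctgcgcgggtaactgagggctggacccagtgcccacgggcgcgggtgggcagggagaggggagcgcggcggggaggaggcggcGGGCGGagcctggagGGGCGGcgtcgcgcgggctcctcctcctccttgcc
Rgs19: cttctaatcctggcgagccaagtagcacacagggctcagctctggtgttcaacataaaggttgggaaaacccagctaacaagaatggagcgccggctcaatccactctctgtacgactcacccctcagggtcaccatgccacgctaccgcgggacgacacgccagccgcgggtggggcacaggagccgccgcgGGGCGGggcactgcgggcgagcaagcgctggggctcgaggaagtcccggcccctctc
In the windows shown, those of the genes that fell have fewer G and C bases. GC content was 53.6% for Rgs5 and 43.2% for Rgs7bp, and 76.4% for Rgs10 and 64.8% for Rgs19, beside a median of 52.4% over 32841 promoter windows of the same length. CG dinucleotides numbered 4, 5, 27 and 20 in the same order, against a median of 6. Rgs5 and Rgs7bp hold CCAAT matches, 1 and 2 respectively, and no GC box, while Rgs10 and this start of Rgs19 hold 2 and 1 GC boxes and no CCAAT. The other starts of Rgs19 differ from it: the window of the second has 74.8% GC, 34 CG dinucleotides and 2 GC boxes, and that of the third 54.4% GC, 4 CG dinucleotides and no GC box, values close to those of Rgs5. Of all windows, 33.9% hold CCAAT and 32.7% hold GGGCGG, so both matches are common. Only Rgs7bp of the 4 holds the cAMP response half-site, which 17.8% of windows hold. No TATAAA (12.4% of windows), AP-1 (6.75%), E-box (6.02%) or CArG match (1.47%) was found in these 4 windows. Promoters were matched for 9 of the 10 members, and these matches are a description of letters only.

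Rgs4 and Rgs2 are shown for another reason, since they were among the 6 members with a higher level in mesenteric arteries of sham mice. Their windows are on the - strand at chr1:169747643-169747892 and chr1:144004150-144004399, and here capitals also mark TATAAA.
Rgs4: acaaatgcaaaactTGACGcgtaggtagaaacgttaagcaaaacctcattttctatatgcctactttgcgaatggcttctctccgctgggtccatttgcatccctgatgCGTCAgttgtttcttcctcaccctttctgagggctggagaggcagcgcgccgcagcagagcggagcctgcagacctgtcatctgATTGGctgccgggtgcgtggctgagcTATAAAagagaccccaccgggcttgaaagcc
Rgs2: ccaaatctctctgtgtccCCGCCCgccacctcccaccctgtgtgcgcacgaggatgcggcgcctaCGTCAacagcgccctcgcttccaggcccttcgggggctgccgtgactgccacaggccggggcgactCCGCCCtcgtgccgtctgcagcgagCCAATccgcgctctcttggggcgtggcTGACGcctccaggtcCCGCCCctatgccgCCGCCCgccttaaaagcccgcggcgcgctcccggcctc
Both hold 2 cAMP response half-sites. The other members of those 6 did not share this: Rgs7bp holds 1, Rgs16 has no match, and only the second start of Rgs12 holds 1. No promoter was matched for Rgs1. Rgs4 has a TATAAA match ending 26 bases before its start, and Rgs2 has 4 GC boxes and none of TATAAA. GC content was 53.6% for Rgs4 and 72.4% for Rgs2. Rgs4 and Rgs5 are neighbouring protein-coding genes on chromosome 1, where Rgs1, Rgs2 and Rgs16 also lie.

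Rgs5 was the most abundant member in every group, and Rgs4 came second. To compare genes, CPM was divided by the length of each gene's merged exons in GENCODE M21. On this scale Rgs5 averaged 217 ± 41.0 CPM per kb (SD, n = 4) in sham aorta and 255 ± 86.8 in sham mesenteric arteries. Rgs4 averaged 51.8 ± 8.59 and 137 ± 28.2 CPM per kb. Rgs7bp and Rgs2 followed in both tissues, at 15.8 ± 0.39 and 8.52 ± 2.13 in the aorta and at 30.1 ± 5.73 and 33.6 ± 5.04 in the mesenteric arteries. Rgs16 was the lowest in both, at 0.081 ± 0.060 and 1.83 ± 0.41 CPM per kb. Merged exon lengths can overstate the transcript where an annotation holds many isoforms, and isoforms were not examined here. Levels per kb, and the order drawn from them, may thus be too low for members with long merged exons. Among these were Rgs3 (10801 bases), Rgs12 (8487 bases), Rgs7bp (7077 bases) and Rgs1 (6947 bases).

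**Figure D1:**
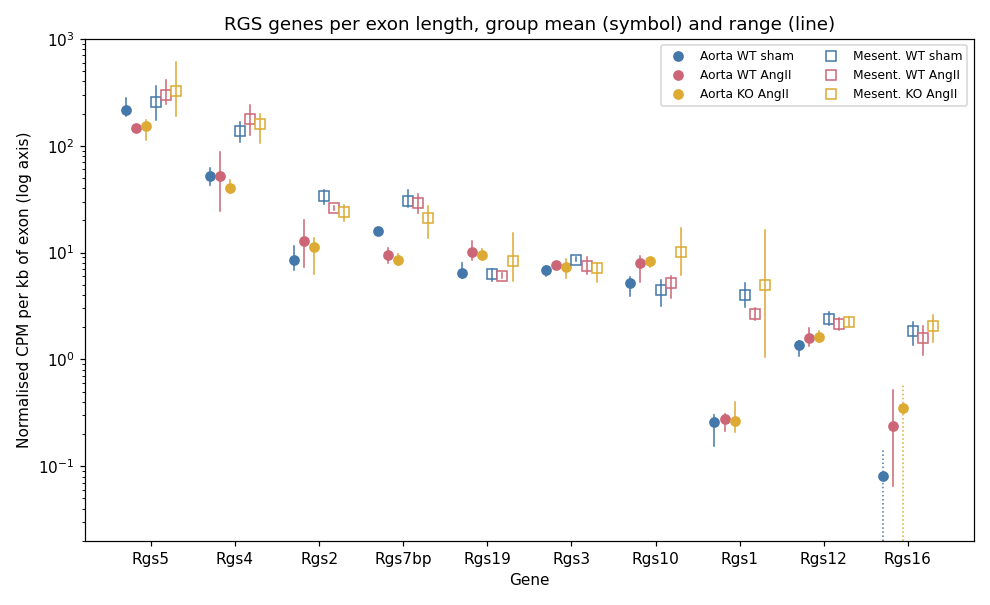
Mean level of each member per kb of merged exon (CPM per kb, log axis) in the 6 groups, with lines from the lowest to the highest library. A dotted line marks a range that reaches 0, as for Rgs16 in sham and KO aorta. Rgs5 stands highest and Rgs4 second in all 6 groups.

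After AngII, 4 of the 10 members were called in the aorta of WT mice, 2 up and 2 down, where 25.5% of the 16863 genes tested were called (14.7% higher and 10.8% lower). The median log2 fold change of the members was 0.16, against 0.00 over all genes tested. Members that changed were thus a mixture of both directions, and 4 of 10 was not far from the share over all genes. All 10 members passed the filter on low counts in both tissues.

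Rgs5, an inhibitor of Gq and Gi signalling that marks arterial smooth muscle and pericytes, fell in the aorta. It stood at 1264, 917, 894 and 870 CPM under sham treatment and at 612, 699, 646 and 686 CPM after AngII in WT mice. The groups did not overlap, and sham replicate 1 was the highest aortic library. Rgs5 fell by 0.59 ± 0.14 on the log2 scale, to 0.66 of the sham level (edgeR adjusted p = 0.0066), and by 0.45 ± 0.13 without sham replicate 1 (adjusted p = 0.0213). The KO AngII libraries were at 518, 721, 793, 728 and 687 CPM, also all below sham.

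Rgs7bp was the member with the smallest adjusted p. Its protein is not itself a GTPase activator: it binds RGS proteins of the R7 class with Gnb5 and moves them between membrane and nucleus through its palmitoylation. The sham aortas were nearly alike, at 113, 109, 115 and 110 CPM. The WT AngII libraries were at 56.2, 70.5, 65.7 and 78.8 CPM and the KO AngII libraries at 57.0, 58.2, 69.2, 62.1 and 53.8. In no case did a library of either infused group reach the sham range. Rgs7bp fell by 0.73 ± 0.096 in WT (edgeR adjusted p = 0.0001), to 0.60 of the sham level, and KO AngII aortas were lower than sham by -0.91 ± 0.091 (log2). Of the R7 proteins that Rgs7bp binds, Rgs7 fell by 0.64 ± 0.11 (edgeR adjusted p = 0.0007) and Rgs11 by 0.47 ± 0.14 (adjusted p = 0.0207) in the same comparison. Gnb5 was not called.

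Rgs19 and Rgs10 moved the other way. Rgs19 (GAIP), which acts on Gi-class subunits, was at 14.3, 17.7, 13.1 and 12.97 CPM in sham aorta and at 20.4, 22.0, 28.7 and 19.0 in WT AngII aorta, with no overlap. It rose by 0.62 ± 0.13 (edgeR adjusted p = 0.0037), a fold of 1.54. Rgs10, a small RGS protein abundant in immune cells and known for its role in microglia and macrophages, was at 9.91, 10.2, 9.08 and 6.67 CPM in sham and at 15.3, 14.7, 15.8 and 9.08 in WT AngII. Replicate 4 of WT AngII lay within the sham range, and the other 3 above it. Rgs10 rose by 0.60 ± 0.17 (edgeR adjusted p = 0.0165), and by 0.75 ± 0.13 without that replicate. Its call was lost without sham replicate 4 (log2 fold change 0.47, adjusted p = 0.0509) and when the KO libraries were left out of the fit (adjusted p = 0.0529).

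Markers of other cells moved with these 4 genes. All 7 macrophage markers tested rose in WT AngII aorta, where the mean log2 CPM of the list was 5.23 to 5.52 in sham, 5.75 to 6.11 in WT AngII and 6.03 to 6.23 in KO AngII. Of 6 fibroblast markers 4 rose, and the list mean went from 8.83 to 8.97 in sham up to 9.45 to 10.76 in WT AngII. Among 7 smooth muscle markers, Lmod1 (-0.65 ± 0.16, edgeR adjusted p = 0.0073) and Myh11 (-0.61 ± 0.20, adjusted p = 0.0316) fell, and none rose. Of 6 pericyte markers, Pdgfrb (0.36 ± 0.09) and Higd1b (2.90 ± 0.92) rose and Abcc9 fell (-0.34 ± 0.10), with a list median of 0.06. The part of these cell types in the RGS values was not tested, and in whole vessels fewer cells of a type cannot be told apart from less RNA per cell.

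The other 6 members were not called in this comparison. Rgs2, which acts mainly on Gq and is known for blunting the response to angiotensin II, was at 29.9, 24.7, 27.0 and 42.0 CPM in sham aorta and at 73.4, 44.9, 41.9 and 26.4 in WT AngII aorta. The infused libraries ranged from within the sham range to well above it, and the log2 difference of 0.58 ± 0.31 missed the threshold (edgeR adjusted p = 0.198). Rgs4, a Gq and Gi regulator of contractile and nerve cells, had the widest spread of the abundant members after AngII, at 134, 170, 193 and 145 CPM in sham and 75.4, 139, 160 and 268 in WT AngII. The difference was -0.01 ± 0.28, with a 95% interval of -0.63 to 0.60. The same 4 AngII libraries differed in smooth muscle markers, which averaged 10.08, 10.65, 10.61 and 10.999 (log2 CPM) in that order. The sham aortas averaged 10.75 to 10.94 in these markers. Immediate early genes, a group switched on by handling as well as by signals, were highest in WT AngII replicate 4, at 7.34 on the same scale. The part of either marker group in the spread of Rgs4 was not tested. Rgs16 was near the detection floor, with 8, 5, 9 and 0 reads in the sham aortas and 34, 4, 10 and 13 in the WT AngII aortas, and its log2 difference of 1.49 ± 0.92 had an interval of -0.49 to 3.48. Rgs3, Rgs12 and Rgs1 differed by 0.11 ± 0.11, 0.22 ± 0.14 and 0.07 ± 0.26, and their groups overlapped.

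**Figure D2:**
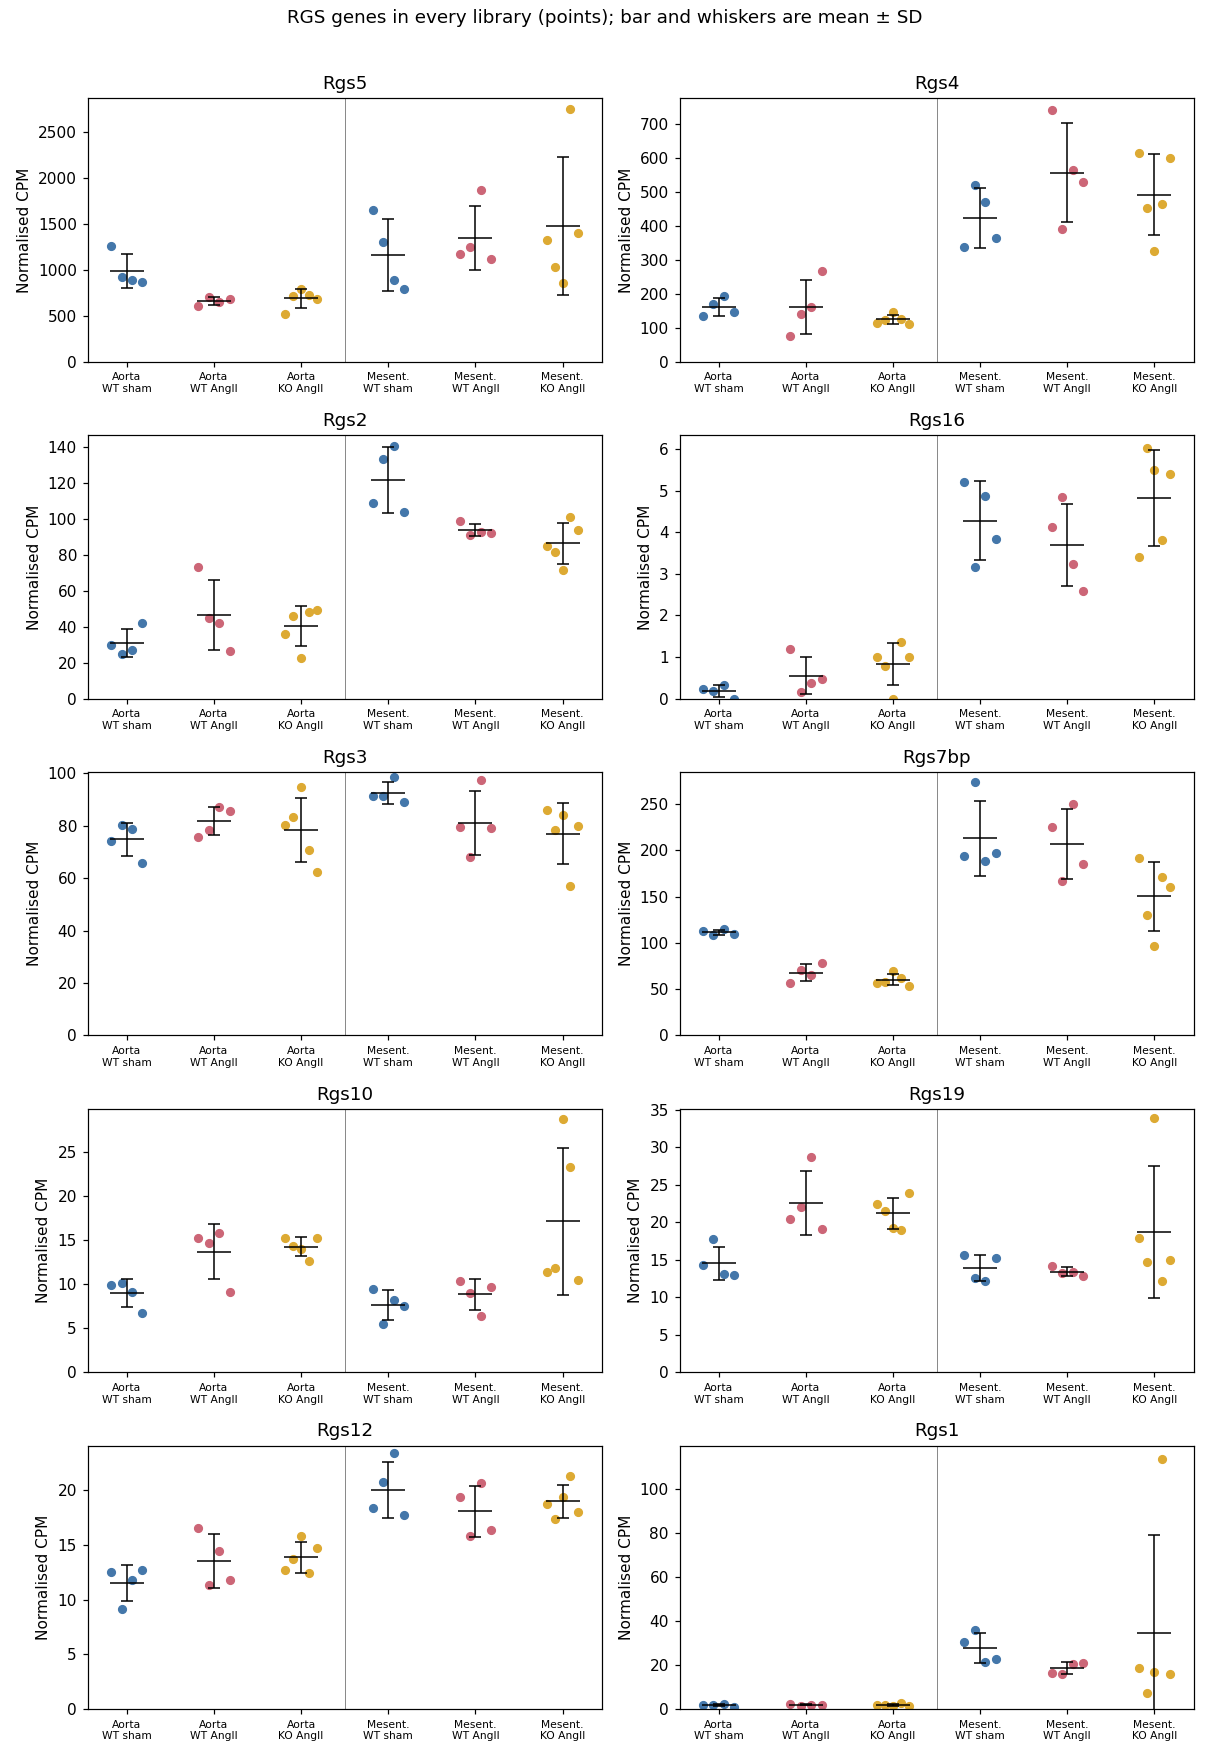
Level of the 10 members in each library (normalised CPM), with 1 panel per gene, points for libraries in the 6 groups, and bars and whiskers for the mean ± SD. In the aorta, the sham points of Rgs7bp at 109 to 115 CPM stand clear of all infused points at 53.8 to 78.8 CPM, and the mesenteric points of Rgs1, Rgs2, Rgs4 and Rgs16 stand above the aortic ones in sham mice.

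Deletion of Sphk1 in smooth muscle was compared within the infused aortas. No member was called between KO AngII and WT AngII, a comparison in which Sphk1 was the only gene called (0.00593% of 16863 genes). Adjusted p-values were 0.98 or more for all 10 members, and none reached an unadjusted p of 0.05. The data bound the size of a difference for the well measured genes. The 95% interval of the log2 difference was -0.22 to 0.34 for Rgs5, -0.37 to 0.02 for Rgs7bp, -0.36 to 0.18 for Rgs19 and -0.28 to 0.39 for Rgs10. For Rgs4 it was wider, -0.95 to 0.21, and for Rgs2 -0.85 to 0.43. Rgs16 could not be bounded closely, at -1.09 to 2.21. A p above the threshold does not show that levels were alike.

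KO AngII aortas differed from WT sham in the same 4 genes as WT AngII did, with 30.8% of all genes called (16.6% higher and 14.2% lower). These comparisons share their sham libraries. Rgs5 was lower by -0.53 ± 0.13 (edgeR adjusted p = 0.0069), Rgs10 was higher by 0.65 ± 0.16 (adjusted p = 0.0063) and Rgs19 by 0.53 ± 0.13 (adjusted p = 0.0059). The KO libraries of Rgs10 lay at 12.6 to 15.2 CPM, all above the sham range. Rgs16 was at 0.99, 0.78, 0.00, 1.36 and 1.00 CPM in KO aortas, a log2 difference from sham of 2.06 ± 0.87 that was not called (edgeR adjusted p = 0.0898) and was called without KO replicate 3, the library with no read (2.39 ± 0.64, adjusted p = 0.0119) and by DESeq2 (adjusted p = 0.0483). Rgs4 was at 111 to 147 CPM in KO aortas, a difference from sham of -0.38 ± 0.27 (edgeR adjusted p = 0.308), which was called lower by limma voom (-0.46 ± 0.16, adjusted p = 0.0363) and in a fit of the compared groups alone (-0.38 ± 0.11, edgeR adjusted p = 0.0181).

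**Figure D3:**
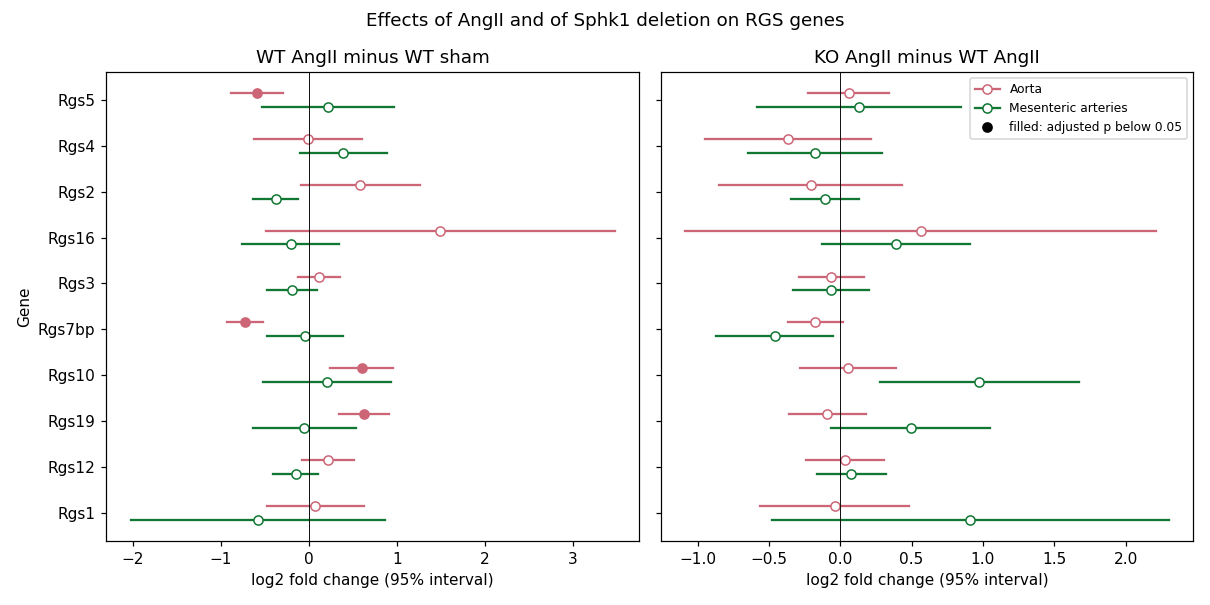
Log2 fold changes of the 10 members with 95% intervals for WT AngII against WT sham and for KO AngII against WT AngII, in the aorta and in the mesenteric arteries. In the aorta, the AngII intervals of Rgs5 and Rgs7bp lie below 0 and those of Rgs10 and Rgs19 above 0, while the KO intervals of all 10 members include 0.

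In the mesenteric arteries no member was called after AngII, where 0.183% of 17513 genes were called. The count at an unadjusted p below 0.05 was 1, Rgs2, and DESeq2 and limma voom also called none. Rgs2 was at 109, 134, 141 and 104 CPM in sham and at 98.8, 91.3, 92.6 and 92.4 in WT AngII. Every AngII library lay below every sham library, with a log2 difference of -0.38 ± 0.12 (edgeR adjusted p = 0.267). Rgs1, a regulator known from lymphocytes, was at 30.5, 35.8, 21.5 and 22.5 CPM in sham and 16.2, 16.1, 20.6 and 21.1 in WT AngII. Its groups did not overlap either (-0.58 ± 0.67, edgeR adjusted p = 0.781). The share of all genes without overlap was not computed. Rgs5, at 1649, 1308, 890 and 795 CPM in sham and 1168, 1247, 1869 and 1121 in WT AngII, overlapped, and its difference was 0.22 ± 0.35. Rgs7bp differed by -0.05 ± 0.20.

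The KO against WT AngII comparison gave no call among the members either, and Sphk1 was again the only gene called (0.00571%). The unadjusted p was below 0.05 for 2 members, Rgs10 and Rgs7bp, with 95% intervals of 0.28 to 1.67 and -0.87 to -0.05. The largest difference was that of Rgs10. WT AngII libraries held 10.3, 8.98, 6.37 and 9.64 CPM and KO AngII libraries 11.4, 11.9, 28.8, 23.3 and 10.5 CPM. The groups did not overlap, and the share of all genes without overlap was not computed. Most of the difference of 0.98 ± 0.32 (edgeR adjusted p = 0.798) was carried by 2 KO libraries. These were replicate 3, with the highest macrophage and B lymphocyte markers, and replicate 4, with the highest neural markers. With both left out the difference was 0.35 ± 0.20 (adjusted p = 0.921), an alternative chosen after seeing the data. Rgs19 followed replicate 3, at 33.9 CPM there and 12.1 to 17.8 CPM in the other 4 KO libraries, and its difference went from 0.49 ± 0.26 to 0.15 ± 0.12 without it. Rgs1 stood at 113 CPM in KO replicate 4 and at 7.37 to 18.8 CPM in the other 4, and its difference of 0.91 ± 0.64 became -0.31 ± 0.26 without that library. Rgs5 was also highest in that library, at 2755 CPM beside 859 to 1401 CPM, and its difference went from 0.13 ± 0.33 to -0.22 ± 0.25 without it. Rgs7bp was at 192, 130.5, 96.5, 172 and 160 CPM in KO and 226, 167, 250 and 185 in WT AngII. Its difference was -0.46 ± 0.19 (edgeR adjusted p = 0.798). Replicate 3 was its lowest KO library, and over all alternatives the difference ran from -0.56 to -0.34. KO replicates 2, 3 and 4 also had 11.4, 14.7 and 14.2% of their records not aligned, beside 1.40 and 1.10% in KO replicates 1 and 5. WT AngII replicate 1 had 12.0%. The part of immune and neural cells, or of alignment, in these values was not tested.

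Against sham, the KO AngII mesenteric arteries had no called member, with 0.708% of genes called (0.457% higher and 0.251% lower). The unadjusted p was below 0.05 for 3 members, Rgs2, Rgs10 and Rgs7bp. Rgs7bp differed by -0.51 ± 0.19 (edgeR adjusted p = 0.181), and its groups overlapped. The KO libraries of Rgs2, Rgs10 and Rgs3 did not overlap with sham, and the share of all genes without overlap was not computed. Rgs2 was at 84.8, 81.6, 71.4, 101 and 93.8 CPM in KO, all below sham (-0.49 ± 0.11, edgeR adjusted p = 0.0633), and it was called without KO replicate 4 (-0.55 ± 0.11, adjusted p = 0.0427), by DESeq2 (adjusted p = 0.0033) and by limma voom (adjusted p = 0.046). Rgs10 differed by 1.18 ± 0.32 (edgeR adjusted p = 0.106), was called by DESeq2 (adjusted p = 0.0104), and differed by 0.55 ± 0.20 without KO replicates 3 and 4 (edgeR adjusted p = 0.223). Rgs1 differed from sham by 0.33 ± 0.63, and by -0.89 ± 0.26 without KO replicate 4 (adjusted p = 0.115). Rgs5 differed by 0.35 ± 0.33 and by -0.0036 ± 0.25 without it. Rgs19 differed by 0.44 ± 0.26, and by 0.10 ± 0.12 without KO replicate 3. Rgs3, a Gq and Gi regulator with long and short isoforms, was at 89.05 to 98.4 CPM in sham and 56.9 to 85.9 in KO (-0.26 ± 0.12, adjusted p = 0.269), with a difference of -0.17 ± 0.095 without KO replicate 4, its lowest library.

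**Figure D4:**
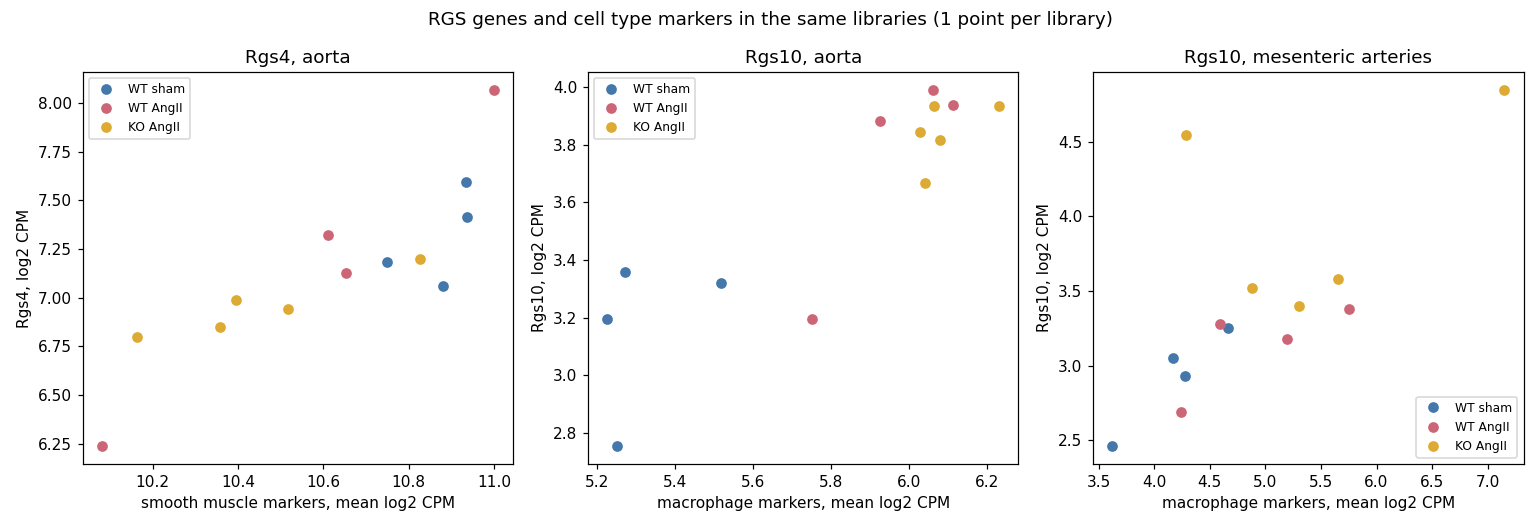
Member genes against cell type markers in the same libraries, all on the log2 CPM scale: Rgs4 against smooth muscle markers in the aorta, and Rgs10 against macrophage markers in the aorta and in the mesenteric arteries, with points coloured by group. The lone Rgs4 point at the top right is WT AngII replicate 4 (marker mean 10.999), and the mesenteric Rgs10 point at the far right is KO AngII replicate 3 (marker mean 7.15), while KO AngII replicate 4 is high in Rgs10 at a macrophage mean of 4.29.

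More members were called between tissues than between treatments, as were more of all genes tested. In sham mice 6 of the 10 had a higher level in mesenteric arteries than in aorta and none had a lower one, where 38.4% of 18520 genes were called (20.7% higher and 17.7% lower). The median log2 difference of the members was 0.87, against 0.02 over all genes. Rgs16 had the largest difference, with 0.24, 0.19, 0.33 and 0.00 CPM in the aorta and 5.21, 3.16, 4.88 and 3.84 CPM in the mesenteric arteries (log2 difference 4.44 ± 0.74). Rgs1 was at 1.96, 2.04, 2.11 and 1.08 CPM in the aorta and at 21.5 to 35.8 CPM in the mesenteric arteries (3.93 ± 0.60). Both were scarce in the aorta and present in every mesenteric library. Rgs2 differed by 1.98 ± 0.25 and Rgs4 by 1.40 ± 0.27, from 161 ± 26.6 to 423 ± 87.5 CPM (SD, n = 4 each). Rgs7bp differed by 0.94 ± 0.17 and Rgs12, a large RGS protein with a PDZ domain, by 0.80 ± 0.13. The largest edgeR adjusted p of these 6 was 0.00023, for Rgs4. Rgs3 did not overlap between the tissues but missed the threshold (0.31 ± 0.12, edgeR adjusted p = 0.0532). Rgs5, Rgs10 and Rgs19 differed by 0.24 ± 0.27, -0.22 ± 0.27 and -0.06 ± 0.22.

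Other markers differed between the tissues as well. Of the markers tested, 6 of 6 endothelial, 5 of 6 neural and glial and 5 of 5 gut and pancreas genes were higher in the mesenteric arteries, and 2 of 7 smooth muscle and 3 of 7 macrophage genes were lower. Of 12 immediate early genes 4 were higher, with a median of 0.77. Of 5 B lymphocyte markers 2 were higher and none lower, with a median of 2.96. Their part in the RGS differences was not tested. 

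Ordered by mean CPM over the 6 groups, the genes fell into a few patterns. For Rgs1, Rgs4 and Rgs16 the 3 mesenteric groups came first and every mesenteric library lay above every aortic one. Over all genes, the share with such a separation was not computed. For Rgs12 the 3 mesenteric groups also came first, with 15.8 CPM in the lowest mesenteric library and 16.6 in the highest aortic one. For Rgs2, the ranges of KO AngII mesenteric arteries (71.4 to 101 CPM) and WT AngII aorta (26.4 to 73.4 CPM) overlapped by a little, and sham mesenteric arteries stood clear at the top. Rgs5 and Rgs7bp had the infused aortas at the bottom, below sham aorta without overlap, while sham aorta overlapped with the group above it. Rgs3 had sham mesenteric arteries at the top by mean, clear only of some groups. Their range of 89.05 to 98.4 CPM did not overlap with WT AngII aorta, the next group by mean. It did overlap with WT AngII mesenteric arteries (up to 97.5 CPM) and KO AngII aorta (up to 94.7 CPM). The other neighbours in the order of Rgs3 overlapped. For Rgs10 and Rgs19 every neighbouring pair of groups overlapped, with sham and AngII mesenteric arteries of WT mice lowest for Rgs10 and AngII mesenteric arteries of WT mice lowest for Rgs19.

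The AngII effect was then compared between the tissues by an interaction term over all 26 libraries. No member was called, where 2.34% of 18520 genes were (0.68% higher and 1.66% lower in the mesenteric arteries). The unadjusted p was below 0.05 for 4 members. Rgs2 had the largest of these differences, -0.97 ± 0.34 (edgeR adjusted p = 0.142), with values in opposite directions in the tissues. Rgs7bp differed by 0.67 ± 0.23 (adjusted p = 0.141), Rgs19 by -0.69 ± 0.30 (adjusted p = 0.274) and Rgs12 by -0.38 ± 0.18 (adjusted p = 0.324). Leaving out aortic WT AngII replicate 4 made Rgs2 pass (-1.17 ± 0.31, adjusted p = 0.0365). Leaving out mesenteric KO AngII replicate 3 made Rgs7bp (adjusted p = 0.0485) and Rgs19 (adjusted p = 0.0483) pass. The fall of Rgs7bp and the rise of Rgs19 in the aorta are thus not shown to be particular to it. For the deletion, no gene was called in the interaction (0.00% of 18520). Among the members 1 had an unadjusted p below 0.05, Rgs10 (0.90 ± 0.36, edgeR adjusted p = 0.953). That value was 0.63 ± 0.31 without mesenteric KO replicate 3 and 0.77 ± 0.36 without replicate 4.

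The rest of the pathway was counted from lists of related genes. Of 16 other RGS family genes, 9 were tested in the aorta and 4 were called after AngII. Of all genes tested there, 25.5% were called (14.7% higher and 10.8% lower), a share to set beside the count of each list. Rgs14 (1.09 ± 0.20), a scaffold of the brain and immune cells, and Rgs18 (0.66 ± 0.23), a regulator of platelets and myeloid cells, rose, while Rgs7 and Rgs11 fell as given above. The median over those 9 was -0.34. Among 13 G alpha genes, Gna13 rose (0.27 ± 0.09) and Gnao1 (-0.34 ± 0.08) and Gnaz (-0.59 ± 0.16) fell. Gnaq, Gna11 and Gnai1, Gnai2 and Gnai3, which encode the main substrates of RGS proteins in vessels, were not called there. Of 12 G beta and gamma genes only Gng2 rose (0.67 ± 0.23). Of 23 effectors 5 rose and 5 fell, among them the phospholipase Plcb2 (2.13 ± 0.29), the kinase Prkca (0.64 ± 0.11) and the adenylyl cyclase Adcy1 (-1.48 ± 0.17). Of 35 receptors coupled to Gq and Gi, 9 rose and 3 fell, with a median of 0.35. The endothelin receptor Ednra (1.48 ± 0.27), the thrombin receptor F2r (0.74 ± 0.14) and the sphingosine-1-phosphate receptor S1pr2 (0.72 ± 0.12) rose, and the adrenergic receptor Adra2a fell by 2.04 ± 0.31. Among 7 receptor kinases and arrestins, Grk5 (0.73 ± 0.18) and Arrb1 (0.24 ± 0.08) rose. Of 9 other G alpha regulators, Gpsm3 rose (0.64 ± 0.20) and Gpsm2 fell (-1.08 ± 0.14). All these genes had an edgeR adjusted p below 0.05. In the aortic KO against WT AngII comparison, and in the mesenteric comparisons of AngII, of KO against WT AngII and of KO against sham, none of the 7 lists had a called gene. At most 0.708% of all genes were called in these comparisons.

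Between the tissues of sham mice, genes of the R7 class differed in both directions. Rgs6 was higher in the mesenteric arteries (3.75 ± 0.23, 1.36 to 2.08 CPM in the aorta and 19.8 to 28.1 CPM there), and Rgs7 was lower (-3.99 ± 0.33, 31.3 to 38.2 and 1.61 to 2.82 CPM). Rgs9 was also higher (3.83 ± 0.80), from a total of 10 reads in the sham aortas. Rgs11, the other R7 gene, was at 9.50 to 13.8 CPM in the aorta and 9.63 to 14.5 CPM in the mesenteric arteries. Of 37 receptors tested 16 were higher and 6 lower, with a median of 1.02. Over all genes tested, 20.7% were higher and 17.7% lower. S1pr3 (7.53 ± 0.29), S1pr1 (2.17 ± 0.16), the angiotensin receptor Agtr1b (2.96 ± 0.27) and the endothelin receptor Ednrb (2.91 ± 0.27) were all higher in the mesenteric arteries. In the interaction of AngII with tissue, Ednra (-1.72 ± 0.31), Lpar1 (-0.98 ± 0.25), S1pr3 (-1.23 ± 0.33) and Gng11 (-0.72 ± 0.19) were called, each with a lower AngII effect in the mesenteric arteries (edgeR adjusted p = 0.0036 to 0.0457).

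The genes whose log2 CPM ran most like each member's were sought over the 13 libraries of a tissue. These are descriptions across libraries that share group and depth, chosen as the highest of 11926 or more genes compared. In the aorta Rgs7bp ran most like Rbm24 (Pearson r = 0.992), St5 (0.990) and Thra (0.986), and Rgs4 like Ddr1 (0.971), Cspg4 (0.961) and Adgre5 (0.961). Rgs5 ran most like Casp12 (0.962), and Rgs10 like Cdk20 (0.960), Cnpy4 (0.959) and the Fc receptor Fcgr3 (0.957). In the mesenteric arteries Rgs7bp ran most like Camk2g (0.960), Fgf1 (0.958) and Tspan2 (0.957), Rgs19 like Coro1b (0.978) and Gimap6 (0.971), and Rgs10 like Kcnab2 (0.958). No gene appeared in the leading 3 for a member in both tissues.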

How the data were processed

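RNA of 26 libraries, 13 per tissue, was sequenced with a poly(A), strand-marking kit. The deposited values are read counts per gene, 1 table per library, made by the authors with cutadapt, HISAT2 and HTSeq on GRCm39, per the submitters' processing notes. No version or strand setting is given in the sources used here, so reads of overlapping genes on opposite strands may be mixed. The summary lines of the tables, 18.4 to 22.0% of aortic and 20.4 to 33.6% of mesenteric records, stayed out of library sizes and tests. Records not aligned were 11.4, 14.7 and 14.2% in mesenteric KO AngII replicates 2, 3 and 4 and 12.0% in WT AngII replicate 1. The other mesenteric libraries had 0.85 to 2.52%.

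The 3 groups of each tissue were fitted together with edgeR 4.0.16 in R 4.3.3 (TMM, filterByExpr, robust quasi-likelihood F test). Comparisons of tissues used 1 model of all 26 libraries and 6 groups. Intervals are 95% intervals, and log2 CPM carries a prior count of 2. No 2 libraries of a group agreed within sampling noise. P-values judge differences between groups against the spread between libraries. All libraries were taken as independent, also across the tissues. Named genes were all 10 members, up to 4 called genes of each list by adjusted p, and the 3 genes most like a member where mean log2 CPM was 1 or more. The members and lists were chosen with earlier results of these data known. Alternatives were DESeq2 1.42.0, limma 3.58.1 voom, other scalings and filters, the replicate number as a block and each library left out.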

Additional observations from a re-analysis of the deposited data

Results flagged for a closer look

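In 6 of 60 groups of libraries examined, the highest or lowest library of a member stood apart from the rest of its group by the Dixon criterion, which chance meets in about 1 of 20 groups. In the aorta, these were Rgs5 in sham replicate 1 (1264 CPM, high), Rgs1 in sham replicate 4 (1.08 CPM, low), Rgs10 in WT AngII replicate 4 (9.08 CPM, low) and Rgs16 in KO AngII replicate 3 (0.0 CPM, low). In the mesenteric arteries, these were Rgs7bp in sham replicate 2 (273.8 CPM, high) and Rgs3 in KO AngII replicate 4 (56.9 CPM, low).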

How the results depend on the processing

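Over 90 single-gene results and 2336 alternatives, 24 calls changed and none reversed, while 78 values that were not called changed sign. With each library left out in turn, the number of members called was 3 to 4 for AngII in the aorta, 4 to 5 for KO AngII against sham aorta, 6 to 7 between sham tissues, 0 to 1 for KO AngII against sham mesenteric arteries, 0 to 2 for the AngII interaction, and 0 in the other 4 comparisons. For KO AngII against sham mesenteric arteries, DESeq2 called 2 members (Rgs2 and Rgs10, adjusted p = 0.0104 for Rgs10) and limma voom 1 (Rgs2). Voom called 3 members in the AngII interaction (Rgs2, Rgs7bp and Rgs19). The cause was not tested. Rgs3 between sham tissues was called under 8 alternatives, among them the replicate block (adjusted p = 0.0221). Deviations of same-numbered libraries were correlated in both directions. Of 12 pairs each in the aorta (r = -0.40 to 0.16) and the mesenteric arteries (-0.39 to 0.43), 5 and 5 were above 0.1. Across tissues 5 of 13 pairs were above it (-0.15 to 0.20). Pairs with different numbers were not computed, so these values cannot tell whether a number marks 1 mouse. Numbers were not taken as pairs, and the block changed no other call. Leaving out the 4 libraries with high B lymphocyte markers changed no count. The low counts of Rgs16 and Rgs1 in the aorta limit what could be seen there.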
